A study of Mus musculus with 10 samples.

Results

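SKO-L80A+Ga is a library from mouse embryonic fibroblasts (MEFs) infected with viruses for Sox2, Klf4, the Oct4 mutant L80A and Gadd45a, and it was set against SKO, the same fibroblasts with viruses for Sox2, Klf4 and wild-type Oct4. The comparison asks how close the chromatin of the mutant mix with Gadd45a was to that of the wild-type mix. It takes 2 of the 10 libraries of the study and all 21965 genes of its ATAC-seq table; 12463 of these genes reached a minimum signal of 6.92, the median of all values, in the mean of either library. ATAC-seq uses a transposase that inserts adapters into open DNA, so a higher signal over a gene means more accessible chromatin there. All MEFs came from embryos at E13.5, carried a GFP transgene driven by the Oct4 promoter, are labelled strain ICR and were infected with pMXs retroviruses in mESC medium; around 50000 cells were used per library. The libraries used beside these 2 were SKO-L80A (the mutant mix without Gadd45a), SKO-L80A+Vc (the mutant mix with vitamin C at 50 µg/ml), SKO+shBrg1 (the wild-type mix with a hairpin RNA against Brg1), Klf4, Sox2 and Oct4 alone, and the Flag control virus. The day of collection and the share of cells that took up every virus are not stated in the labels, and in a bulk library fewer cells with an open gene and less opening per cell cannot be told apart.

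Oct4 (gene Pou5f1), Sox2 and Klf4 are the transcription factors of the classic reprogramming cocktail, which turns fibroblasts into induced pluripotent stem cells. Oct4 binds an octamer motif, often beside a Sox motif, and Klf4 binds GC-rich motifs. Gadd45a is a small stress-inducible protein of the p53 response that has been linked to DNA repair and to active DNA demethylation.

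Each condition has 1 library and 2 columns of signal, whose relation to each other no source used here states. The 2 columns were counted as 1 replicate, so no test was possible and differences are described by size. Columns with the same number were set against each other as log2(signal + 0.138), and the median difference of all genes was subtracted. This median was -0.33 in column pair 1 and -0.16 in column pair 2, so the signal of most genes was lower in SKO-L80A+Ga before centring. The column sums were 256029 and 231782 in SKO-L80A+Ga, against 334696 and 266029 in SKO. The 2 columns of each condition were further apart than the same-numbered columns of SKO-L80A+Ga and SKO. At genes at the minimum signal, the median size of the log2 difference was 0.164 between the columns of SKO-L80A+Ga and 0.153 between those of SKO, and it was 0.104 and 0.105 between the same-numbered columns of both conditions.

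The lower values before centring were not spread evenly. In the quartile of genes with the least signal in Flag, the uncentred medians of the column pairs were 0.02 and 0.01, and in the quartile with the most signal they were -0.39 and -0.19. After centring, the closed quartile stood at 0.36 and 0.17 and the open quartile at -0.06 and -0.04. Closed genes therefore appear higher in SKO-L80A+Ga on the centred scale although their signal was close to equal (median 0.185 in SKO-L80A+Ga and 0.182 in SKO). For this reason medians of gene groups are also given with the trend of the difference on mean signal removed by lowess.

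The promoters shown are those of 4 genes that the results below return to. The first 3 hold the octamer ATGCAAAT and belong to genes with more signal than Flag in the Sox2 or Oct4 library but not Klf4. Of the 8 such octamer genes, they have the lowest mean difference of SKO-L80A+Ga from SKO. The last belongs to a gene with more signal than Flag in the Klf4 library. The sequences run 5′ to 3′ on the strand of the gene, from 250 bases before to 50 after a listed start (RefSeq, GRCm38.p6). For Ptgs1 this start lies inside the span given for the gene below, not at its upstream end. Capitals mark matches on either strand to the octamer, to the Sox motif ACAAAG or to the Klf motif GGGNGTGG. Tspan13 lies at chr12:36042429-36042728 on the minus strand, Il18 at chr9:50554450-50554749, Nrarp at chr2:25180508-25180807 and Ptgs1 at chr2:36230176-36230475, the last 3 on the plus strand.
Tspan13: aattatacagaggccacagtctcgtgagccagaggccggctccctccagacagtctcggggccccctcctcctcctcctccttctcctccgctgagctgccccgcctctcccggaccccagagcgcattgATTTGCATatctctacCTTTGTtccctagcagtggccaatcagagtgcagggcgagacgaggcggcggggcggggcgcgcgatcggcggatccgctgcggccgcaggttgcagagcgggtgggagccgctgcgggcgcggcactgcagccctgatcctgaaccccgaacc
Il18: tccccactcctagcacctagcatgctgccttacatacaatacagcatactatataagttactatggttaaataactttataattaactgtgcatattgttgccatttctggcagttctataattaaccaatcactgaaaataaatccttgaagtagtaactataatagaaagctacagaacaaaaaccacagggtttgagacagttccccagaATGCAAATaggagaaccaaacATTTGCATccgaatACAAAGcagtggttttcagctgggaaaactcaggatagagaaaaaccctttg
Nrarp: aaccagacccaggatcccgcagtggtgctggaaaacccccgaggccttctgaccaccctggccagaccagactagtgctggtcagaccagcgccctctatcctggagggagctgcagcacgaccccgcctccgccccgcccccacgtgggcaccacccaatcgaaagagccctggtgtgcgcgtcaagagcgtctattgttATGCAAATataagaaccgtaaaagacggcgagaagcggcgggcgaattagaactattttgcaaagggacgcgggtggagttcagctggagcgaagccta
Ptgs1: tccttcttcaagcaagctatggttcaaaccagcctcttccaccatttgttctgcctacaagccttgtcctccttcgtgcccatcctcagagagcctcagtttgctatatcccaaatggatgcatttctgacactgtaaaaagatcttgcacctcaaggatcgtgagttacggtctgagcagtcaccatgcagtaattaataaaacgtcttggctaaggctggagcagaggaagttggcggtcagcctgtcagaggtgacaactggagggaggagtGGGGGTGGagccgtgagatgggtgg

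The 4 supplied factor genes did not move together. Sox2 (ENSMUSG00000074637, GRCm38.p6 chromosome 3, 34649995 to 34652461) had a signal of 28.6 and 27.97 in SKO-L80A+Ga, against 72.2 and 59.8 in SKO. SKO-L80A had 38.5 and 51.8 over this gene, and Flag had 2.73 and 5.12. Sox2 was thus lower in SKO-L80A+Ga than in SKO in both columns without overlap, by a factor of 1.96 relative to all genes (mean of both column pairs), and it stayed far above Flag. Klf4 (ENSMUSG00000003032) had 45.7 and 45.1 in SKO-L80A+Ga, against 78.5 and 66.6 in SKO, a relative difference of -0.45 and -0.40. Pou5f1 (ENSMUSG00000024406, chromosome 17, 35506032 to 35510777) went the other way, with 10.98 and 14.1 in SKO-L80A+Ga, against 10.2 and 9.36 in SKO and 0.812 and 1.124 in Flag. Its relative difference was 0.44 and 0.74, and SKO-L80A had 15.4 and 27.5. Reads over the exons of these genes can come from virus inserts as well as from the cells' own genes, and for Pou5f1 the promoter sequence of the GFP transgene can add a further source. The part of unequal virus uptake in the results below was not tested. Gadd45a (ENSMUSG00000036390), supplied only in SKO-L80A+Ga, had 36.6 and 41.5 there and 49.5 and 44.2 in SKO. Relative to all genes this was -0.10 and 0.07, so the signal over Gadd45a gives no check of the label.

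**Figure D1:**
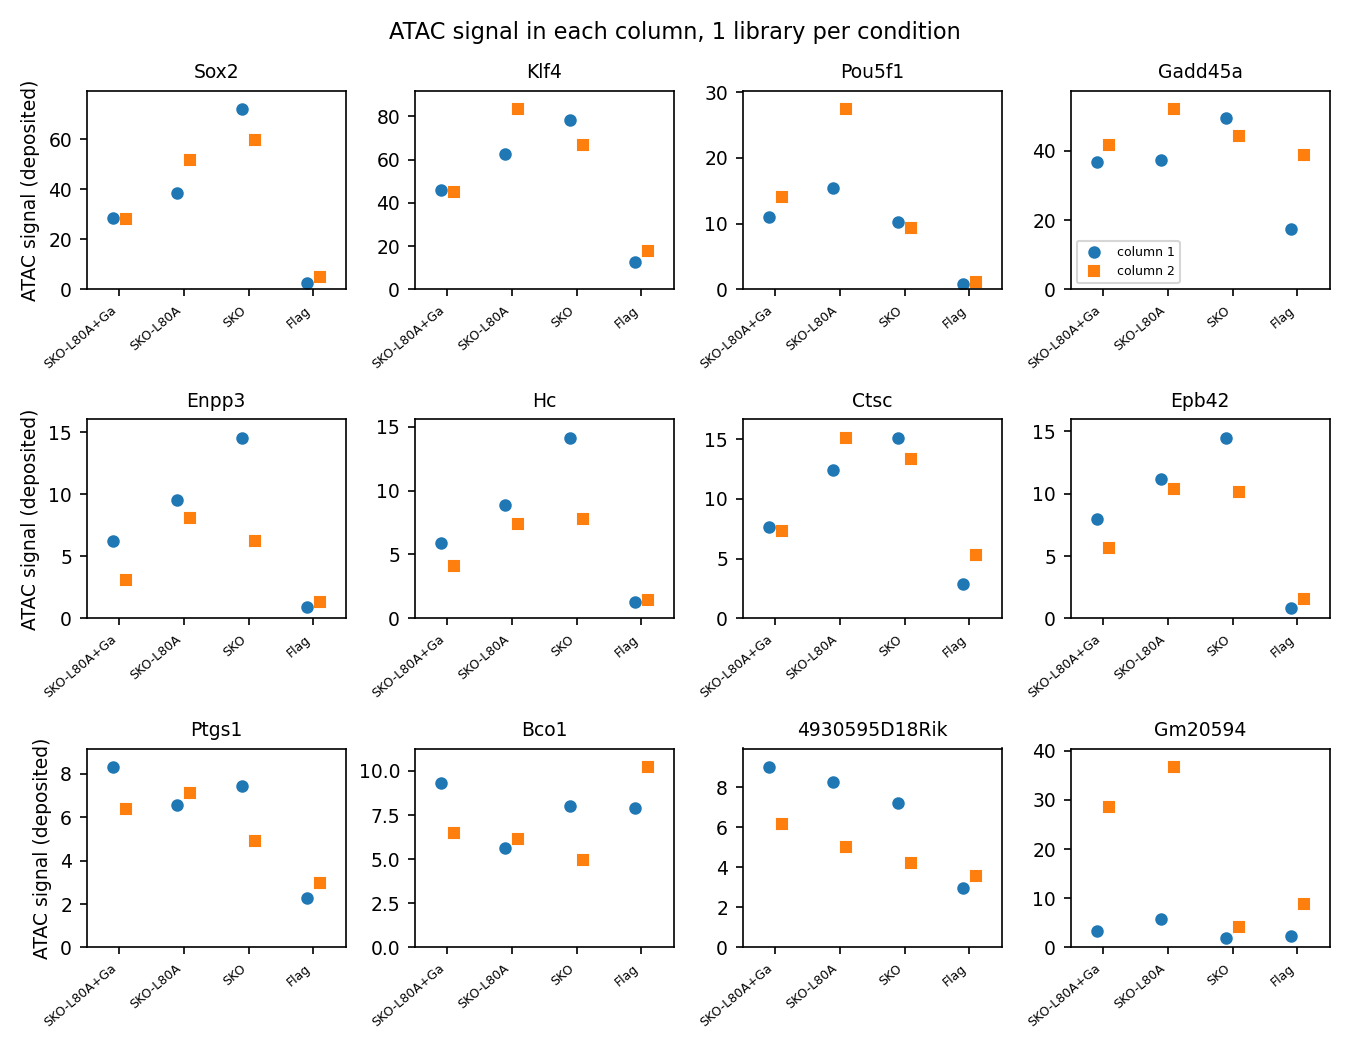
Deposited ATAC signal (y axis, from 0) over 12 genes in SKO-L80A+Ga, SKO-L80A, SKO and Flag; circles are column 1 and squares column 2 of 1 library per condition. Sox2, Klf4, Ctsc and Epb42 sit lower in SKO-L80A+Ga than in SKO in both columns, while Pou5f1 and 4930595D18Rik sit higher in same-numbered columns.

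Few genes differed by a large factor. With at least 2-fold in each column pair, 1 gene was higher in SKO-L80A+Ga than in SKO, which is 0.00802% of the genes at the minimum signal, and 0 were lower (0.0%). At 1.5-fold in each pair, 2 were higher (0.016%) and 7 were lower (0.0562%). The median size of the difference was 0.0822 on the log2 scale and its 95th percentile was 0.271, a factor of 1.21; 99.1% of the genes at the minimum signal lay within 1.5-fold in both pairs. The differences leaned to one side all the same: 44.1% of these genes were lower in both column pairs and 13.3% were higher in both. Over all genes of the table both shares were 30.3%, since the genes under the minimum signal were mostly on the other side. Across genes at the minimum signal, the Pearson correlation between the differences of both pairs was 0.159.

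**Figure D2:**
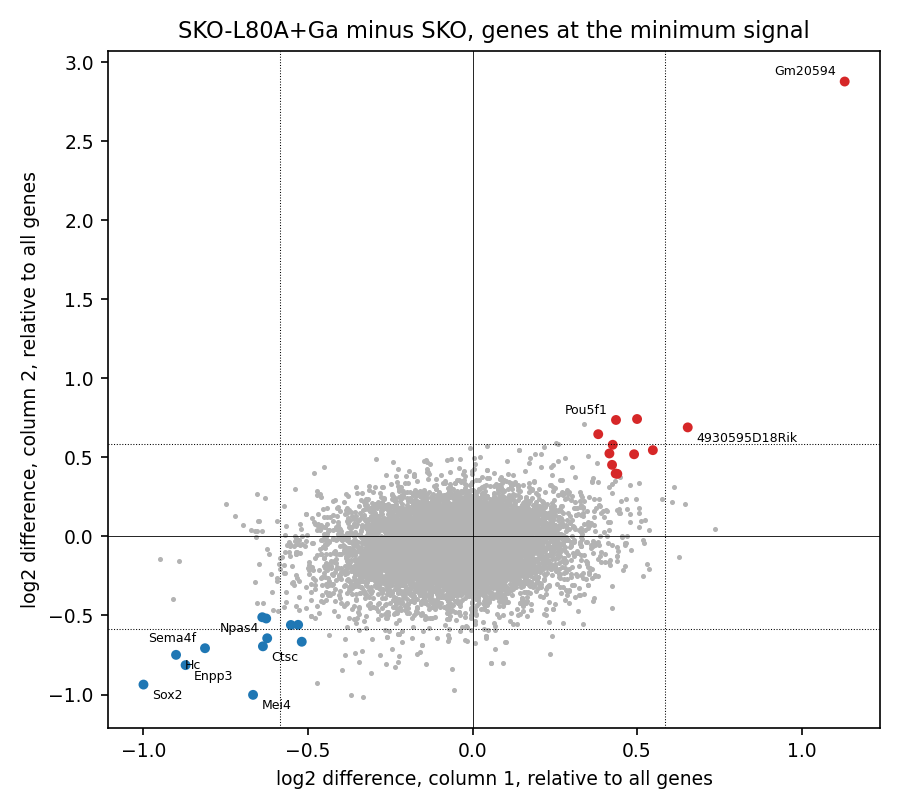
Log2 difference of SKO-L80A+Ga minus SKO relative to all genes in column pair 1 (x axis) and column pair 2 (y axis) for the 12463 genes at the minimum signal; blue and red mark the 12 genes lowest and the 12 highest in both pairs, and dotted lines mark 1.5-fold. The 7 genes past 1.5-fold on the lower side start with Sox2, and on the higher side Gm20594, far from the rest, and 4930595D18Rik pass it.

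The 7 lower genes past 1.5-fold were Sox2, Enpp3, Hc, Sema4f, Mei4, Ctsc and Npas4. Most of these names depended on how the columns were paired: with the columns crossed, 4 genes were called and only Sox2, Ctsc and Mei4 of the 7 were among them, and without centring the 7 were among 76 lower genes. In SKO-L80A+Ga, 5 of the 7 had a mean under the minimum signal, all but Sox2 and Ctsc, so they passed it only through SKO. Enpp3 (ENSMUSG00000019989, chromosome 10, 24773814 to 24836195), a nucleotide-cleaving ectoenzyme known from basophils and mast cells, had 6.25 and 3.11 in SKO-L80A+Ga, against 14.6 and 6.22 in SKO. SKO-L80A had 9.59 and 8.13 over Enpp3, and Flag had 0.926 and 1.29. The signal was lower in each column pair, by -0.87 and -0.81 relative to all genes, although the ranges of both conditions touched. Hc (ENSMUSG00000026874, chromosome 2, 34983329 to 35068506), which encodes complement C5, had 5.93 and 4.09 in SKO-L80A+Ga, against 14.1 and 7.78 in SKO, 8.91 and 7.40 in SKO-L80A and 1.27 and 1.46 in Flag. Its relative difference was -0.90 and -0.75, with no overlap between SKO-L80A+Ga and SKO. Ctsc (ENSMUSG00000030560, chromosome 7, 88278024 to 88315861), the lysosomal protease cathepsin C, had 7.66 and 7.36 in SKO-L80A+Ga, against 15.1 and 13.4 in SKO, 12.5 and 15.1 in SKO-L80A and 2.92 and 5.33 in Flag. For Ctsc the columns of SKO-L80A+Ga were close to each other, above both columns of Flag and below both of SKO.

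Sema4f, an axon guidance semaphorin, had 4.46 and 5.22 in SKO-L80A+Ga, against 10.0 and 9.61 in SKO. Mei4, a factor of meiotic DNA breaks, had 4.99 and 4.53 in SKO-L80A+Ga, against 10.1 and 10.3 in SKO; since Flag had 3.35 and 8.98, its level in SKO-L80A+Ga was not above the control in both columns. Npas4, a transcription factor induced by neuronal activity, had 4.78 and 4.15 in SKO-L80A+Ga, against 9.42 and 7.33 in SKO. All 3 were lower than SKO in each column without overlap. The next 5 by the lesser of both differences were Galnt18, a glycosyltransferase, Itpr3, a calcium channel of the endoplasmic reticulum, Epb42, a red cell membrane protein, Mapre3, a microtubule end-binding protein, and Olfm3, a secreted olfactomedin. Epb42 (chromosome 2, 121017891 to 121036877) had 7.96 and 5.68 in SKO-L80A+Ga, against 14.5 and 10.2 in SKO and 0.878 and 1.52 in Flag. The 12 lowest genes lay on 9 chromosomes, and in 11 of the 12 the deposited signal of SKO-L80A+Ga did not overlap that of SKO. These genes were picked by this difference, and the signal of most genes was lower in SKO-L80A+Ga before centring. The share of all genes without overlap is not given here, so the count is no result about these genes. Tet1, which encodes an enzyme that oxidises 5-methylcytosine, stood just beyond the 12, with 12.8 and 12.9 in SKO-L80A+Ga, against 24.5 and 19.99 in SKO.

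On the higher side, 2 genes passed 1.5-fold, Gm20594 and 4930595D18Rik. Both had a mean under the minimum signal in SKO, so they passed it only through SKO-L80A+Ga. Gm20594 (chromosome 6, 79818031 to 79818364), for which no function is given here, had 3.27 and 28.5 in SKO-L80A+Ga, against 1.82 and 4.20 in SKO. Its value depended on the column: SKO-L80A had 5.79 and 36.8, and column 2 was also high in SKO-L80A+Vc with 21.2 and in SKO+shBrg1 with 25.1. The long non-coding RNA gene 4930595D18Rik (chromosome 12, 111159850 to 111184491) had 9.03 and 6.16 in SKO-L80A+Ga, against 7.20 and 4.21 in SKO, 8.26 and 5.02 in SKO-L80A and 2.99 and 3.56 in Flag. It was above SKO in each column pair, by 0.65 and 0.69 relative to all genes, but the ranges of both conditions overlapped.

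The other genes of the 12 on the higher side had smaller lesser differences, down to 0.382 relative to all genes, and low signal. Bco1 (chromosome 8, 117095851 to 117133720), which cleaves beta-carotene, had 9.30 and 6.501 in SKO-L80A+Ga, against 7.997 and 4.93 in SKO and 7.88 and 10.2 in Flag. Ptgs1 (chromosome 2, 36216742 to 36258593), the prostaglandin-forming enzyme COX-1, had 8.34 and 6.36 in SKO-L80A+Ga, against 7.46 and 4.91 in SKO and 2.29 and 2.99 in Flag. Slu7, a splicing factor, had 9.31 and 9.52 in SKO-L80A+Ga, against 8.28 and 6.29 in SKO, and here the ranges did not overlap. Tbx20, a heart transcription factor, Lama4, a vessel laminin, Blnk, a B-cell adaptor, Mcf2l, a guanine nucleotide exchange factor, Oit3, 1700122O11Rik and Pou5f1 made up the rest of the 12. Bco1, Ptgs1, Lama4, Blnk and Mcf2l also had a mean under the minimum signal in SKO and passed it only through SKO-L80A+Ga. The deposited signals did not overlap in 4 of these 12 genes, which were picked by this difference. Before centring the differences were smaller by the shift of all genes, so this count cannot be set against that of the lowest genes.

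Genes that the reprogramming mixes opened were then examined, chosen in libraries other than SKO-L80A+Ga and SKO. In both SKO+shBrg1 and SKO-L80A+Vc, 100 genes were at least 2-fold above Flag in each column pair, Sox2, Klf4 and Pou5f1 among them. Their median signal was 11.7 in SKO-L80A+Ga and 15.0 in SKO, against 3.51 in Flag. The median relative difference of SKO-L80A+Ga from SKO was -0.14, or -0.09 with the trend on mean signal removed, beside -0.05 and 0.00 for all genes at the minimum signal. Of the 100 genes, 59 were lower than SKO in both column pairs and 16 were higher, and 2 of them, Sox2 and Ctsc, passed 1.5-fold on the lower side. The count of lower genes is to be read against the 44.1% of all genes at the minimum signal that were lower in both pairs.

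Within this group the values ranged widely. E330017A01Rik, with 0.196 and 0.135 in Flag, had 13.2 and 5.30 in SKO-L80A+Ga, against 17.3 and 11.8 in SKO. Crtam, a cell adhesion receptor of activated T cells, had 9.63 and 4.09 in SKO-L80A+Ga, against 15.8 and 9.30 in SKO. In both of these genes the difference was larger in column pair 2, and for E330017A01Rik it was -0.97 there, against -0.06 in column pair 1. Krt8, a keratin of simple epithelia, had 6.04 and 5.71 in SKO-L80A+Ga, against 9.11 and 7.26 in SKO. Cldn3, a tight junction claudin, had 8.58 and 6.48 in SKO-L80A+Ga, against 13.6 and 8.68 in SKO. Relative to all genes these epithelial genes differed by -0.25 and -0.18 for Krt8 and by -0.32 and -0.26 for Cldn3. Dsp, an epithelial gene of the same group, was higher in both pairs, by 0.103 and 0.035. Dcst2 had 19.9 and 13.8 in SKO-L80A+Ga, against 19.6 and 14.5 in SKO, and Cryab, the lens chaperone alpha-B-crystallin, had 31.9 and 26.5 in SKO-L80A+Ga, against 37.6 and 27.5 in SKO, so several opened genes were about as open in SKO-L80A+Ga as in SKO.

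The opposite group, 17 genes at least 2-fold below Flag in both SKO+shBrg1 and SKO-L80A+Vc, had a median relative difference of 0.34, or 0.31 with the trend removed and 0.09 before centring. Of these genes 12 were higher than SKO in both column pairs and 1 was lower, beside 30.3% of all genes in each direction, but only 5 reached the minimum signal in either library. A wider view took the 12790 genes that reached the minimum signal in SKO+shBrg1, SKO-L80A+Vc or Flag. Binned by their mean log2 difference from Flag in SKO+shBrg1 and SKO-L80A+Vc, they gave medians that differed mainly at the low end. Genes far below Flag can pass this minimum through Flag alone. The 26 genes under -1 had a median of 0.27, and the 118 genes between -1 and -0.5 had 0.07. The 5432 genes between -0.5 and 0 had -0.04, the 6114 genes between 0 and 0.5 had -0.06, and the 838 genes between 0.5 and 1 had -0.10. The 222 genes between 1 and 2 had -0.10, as had the 40 genes at 2 and over. Relative to all genes, SKO-L80A+Ga thus lay above SKO only in the 2 bins under -0.5, which hold few genes. The genes under -1 had a median signal of 6.50 in SKO-L80A+Ga and 6.20 in SKO, under the minimum of 6.92. The other bins lay near or below the -0.05 of genes at the minimum signal in SKO-L80A+Ga or SKO, a set chosen differently. With the trend removed, the medians at both ends were 0.30 and -0.06, and the bins next to 0 had 0.01 and -0.01. Before centring the medians were 0.02 in the lowest bin, -0.18 in the next and -0.34 in the highest, so only the lowest bin was above 0 on that scale. SKO-L80A minus SKO, which shares SKO with this comparison, had medians between -0.02 and 0.03 in all bins.

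**Figure D3:**
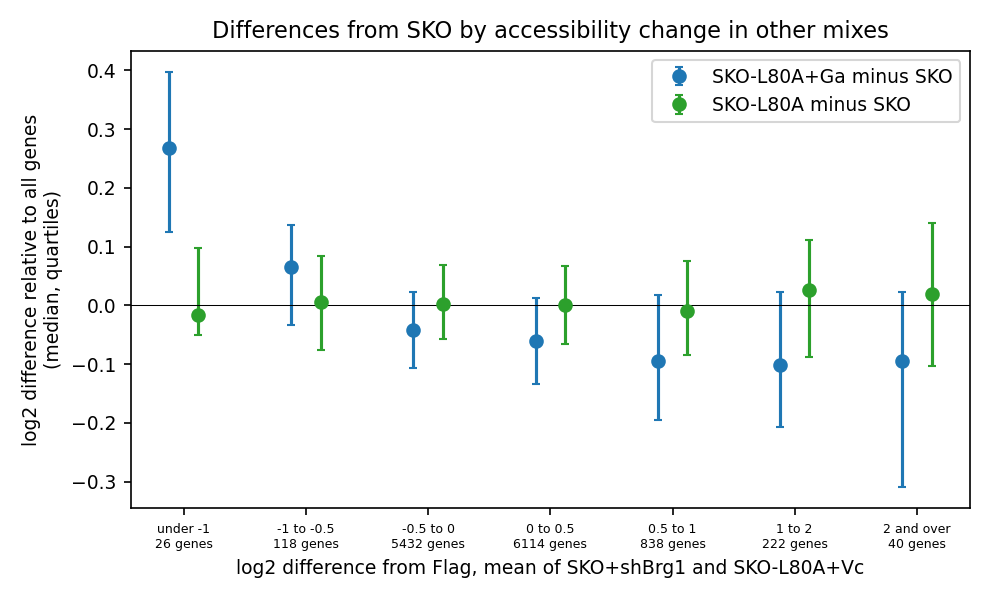
Median and quartiles (bars) of the log2 difference relative to all genes (y axis) for SKO-L80A+Ga minus SKO in blue and SKO-L80A minus SKO in green, in bins of the mean log2 difference of SKO+shBrg1 and SKO-L80A+Vc from Flag (x axis, number of genes below each bin). SKO-L80A+Ga minus SKO runs from 0.27 in the lowest bin to -0.10 in the highest, and the quartile range in the highest bin includes 0.

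Genes were also grouped by whether they stood above or below Flag in the Klf4, Sox2 and Oct4 libraries. The genes used here were at least 1.5-fold from Flag in each column pair of the Klf4, Sox2 or Oct4 library, leaving out the supplied factors, a threshold chosen after the data were seen. Of all genes at the minimum signal in SKO-L80A+Ga or SKO, 2.99% were above Flag by this measure in Klf4, 0.859% in Sox2 and 1.4% in Oct4. Signal over Sox2 was 62.9 and 55.2 in the library labelled Oct4, a factor absent from that label, so genes of these libraries cannot be assigned to Oct4 or Sox2 alone. The 281 genes above Flag in Klf4 but in neither Sox2 nor Oct4 had a median of 0.01 in SKO-L80A+Ga minus SKO, or 0.06 with the trend removed, with 81 lower in both pairs and 86 higher. The 123 genes above Flag in Sox2 or Oct4 but not in Klf4 had a median of -0.16, or -0.11 with the trend removed, with 76 lower and 13 higher. In shares, 28.8% of the Klf4 genes and 61.8% of the Sox2 or Oct4 genes were lower in both pairs, beside 44.1% of all genes at the minimum signal, and 30.6% and 10.6% were higher, beside 13.3%. With the trend removed, 55 of the Klf4 genes were lower in both pairs and 120 higher. Of the Sox2 or Oct4 genes, 64 were lower and 23 higher. On that scale 27.95% of all genes at the minimum signal were lower in both pairs, and their share higher is not given here. The minimum signal was reached by 256 of the 281 Klf4 genes and 121 of the 123 Sox2 or Oct4 genes. The 44 genes above Flag in the Sox2 library had -0.19, and the 97 genes below Flag there had 0.11, or -0.14 before centring. The 129 genes above Flag in the library labelled Oct4 had -0.15. The 44 genes below Flag in that library had 0.18, or -0.06 before centring. In the Klf4 library the 163 genes below Flag went the other way on the centred scale. They had -0.095, or -0.042 with the trend removed and -0.34 before centring, with 86 lower in both pairs and 25 higher. Of the genes named above, Enpp3 stood 4.57-fold above Flag in Oct4, Hc 4.03-fold in Sox2, and Ptgs1 4.17-fold in Klf4.

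The promoter sequences of these groups were searched for motifs. The octamer ATGCAAAT, on either strand, was found in 8 of 93 promoters of the Sox2 or Oct4 genes (8.60%) and in 1 of 207 promoters of the Klf4 genes (0.483%), beside 1.67% of all 16431 promoters of 300 bases. The Klf motif was in 26.9% of promoters of the Sox2 or Oct4 genes, in 28.5% of those of the Klf4 genes and in 19.8% of all, and the Sox motif in 17.2%, 9.66% and 16.7%. The AP-1 motif TGANTCA was in 5.38%, 10.6% and 7.05%. These shares describe letters in a window at a listed start of the gene. Where within a gene the signal arose is not stated. Tspan13, a tetraspanin whose octamer stands 8 bases from a Sox motif in the sequence above, had 4.98 and 6.68 in SKO-L80A+Ga, against 11.8 and 8.34 in SKO and 2.66 and 5.34 in Flag. Il18, an inflammatory cytokine with 2 octamers in its promoter, had 13.1 and 11.7 in SKO-L80A+Ga, against 20.4 and 14.6 in SKO and 4.56 and 10.1 in Flag. Nrarp, a feedback inhibitor of Notch signalling, had 14.9 and 12.5 in SKO-L80A+Ga, against 23.4 and 14.8 in SKO. Relative to all genes, Tspan13 differed by -0.89 and -0.16, Il18 by -0.30 and -0.17, and Nrarp by -0.315 and -0.077. Pim2, a survival kinase and also an octamer gene, had relative differences of 0.03 and 0.01, so the 8 octamer genes were not lower without exception. With the trend removed Pim2 had 0.07 and 0.06, Vpreb3 of the same 8 had 0.04 and 0.01, and Stox2 had -0.18 and 0.01. Tspan13, Il18, Nrarp, Pipox and Egln2 stayed lower in both pairs.

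Known gene groups showed small differences. Sox2 was the single member of any of 16 lists past 1.5-fold in both pairs. The pluripotency network had 16 of its 40 genes at the minimum signal, and its median was 0.05, or 0.03 with the trend removed. Of the 16 genes 9 were lower in both pairs and 1 was higher. These were 56.25% and 6.25%, beside 44.1% and 13.3% of all genes at the minimum signal. Among the members under the minimum signal, where the centred scale runs high, more were higher than lower: over all 40 genes 14 were higher in both pairs and 10 lower. Nanog, a core pluripotency factor, had 0.433 and 0.235 in SKO-L80A+Ga, against 0.665 and 0.615 in SKO, far under the minimum signal in both. Esrrb, an orphan nuclear receptor of naive pluripotency, had 3.01 and 2.73 in SKO-L80A+Ga, against 3.17 and 3.09 in SKO. Gdf3, a TGF-beta superfamily ligand, had 7.99 and 6.32 in SKO-L80A+Ga, against 10.5 and 6.61 in SKO. Nanog and Esrrb were thus under the minimum signal in both mixes, and Gdf3 was near it.

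The fibroblast list had 50 genes, of which 48 were found and 38 reached the minimum signal, and it had a median of -0.04, or 0.00 with the trend removed. Col1a1, the main fibrillar collagen of fibroblasts, had 21.9 and 15.8 in SKO-L80A+Ga, against 28.3 and 20.4 in SKO, and the mesenchymal factor Twist1 had 12.1 and 16.8 in SKO-L80A+Ga, against 18.1 and 17.7 in SKO. Both libraries therefore had open chromatin at these defining genes of the labelled cell type. Prrx1, another mesenchymal factor, had less signal, with 6.64 and 4.71 in SKO-L80A+Ga, against 8.34 and 5.51 in SKO. Lox, a collagen cross-linking oxidase, had 19.3 and 15.7 in SKO-L80A+Ga, against 17.1 and 15.4 in SKO, a relative difference of 0.51 and 0.18. Thy1, a glycoprotein on the surface of fibroblasts, had 6.86 and 5.68 in SKO-L80A+Ga, against 6.23 and 3.87 in SKO. It was under the minimum signal in both libraries. Of the 38 fibroblast genes at the minimum signal 18 were lower in both pairs and 4 were higher, 47.4% and 10.5%, near the 44.1% and 13.3% of all such genes. The epithelial list had 16 of its 36 genes at the minimum signal, and its median was -0.06 with or without the trend. Of these 16 genes 11 were lower in both pairs and 2, Dsp and Cldn6, were higher. These were 68.75% and 12.5%, beside the 44.1% and 13.3% of all genes at the minimum signal. Over all 36 genes of the list 16 were lower in both pairs and 8 higher. The E-cadherin gene Cdh1, under the minimum signal, was higher in both pairs and had 2.30 and 2.69 in SKO-L80A+Ga, against 1.56 and 2.43 in SKO.

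The lists nearest to the supplied Gadd45a were close to all genes as well. The Gadd45 and base excision repair list had a median of -0.05, or -0.02 with the trend removed. Of its 27 genes at the minimum signal 9 were lower in both pairs and 2 higher. These were 33.3% and 7.41%, beside 44.1% and 13.3% of all genes at the minimum signal. Tdg, the glycosylase that removes oxidised methylcytosine, had 19.96 and 16.1 in SKO-L80A+Ga, against 21.7 and 18.4 in SKO. The DNA methylation and demethylation list had -0.01, or 0.03 with the trend removed; its lowest member was Tet1. The p53 and stress response list had -0.07, or -0.02, with 20 of 35 genes lower in both pairs, or 11 with the trend removed, beside 44.1% of all genes at the minimum signal as reported and 27.9% with the trend removed. Cdkn1a, the p53 target that stops the cell cycle, had 28.3 and 21.7 in SKO-L80A+Ga, against 36.1 and 26.2 in SKO, a relative difference of -0.07. Heterochromatin factors had -0.05, or 0.00, and chromatin remodellers had -0.05, or 0.00; Chd7, an ATP-dependent remodeller of enhancers, had 8.57 and 10.1 in SKO-L80A+Ga, against 8.04 and 8.93 in SKO.

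Lists of other lineages, apart from the neural list, mostly held genes under the minimum signal, where the centred scale runs high. The neural list had 12 of its 24 genes at the minimum signal. Trophectoderm and endoderm genes had 0.09, or 0.08 with the trend removed, neural genes 0.03 or 0.04, and blood and endothelial genes 0.07 or 0.06. The germline list had 0.26, but 0.06 with the trend removed, and 3 of its 20 genes reached the minimum signal. Likewise the 1135 olfactory receptor genes had 0.26, but 0.02 with the trend removed. Muscle, cartilage and bone genes stood at -0.13, or -0.12, with 4 of 18 at the minimum signal. AP-1, TEAD and Runx factors had -0.02, or 0.03, and housekeeping genes had -0.02, or 0.03. In the neural list Map2, a microtubule protein of dendrites, had 6.95 and 9.64 in SKO-L80A+Ga, against 12.8 and 12.9 in SKO.

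**Figure D4:**
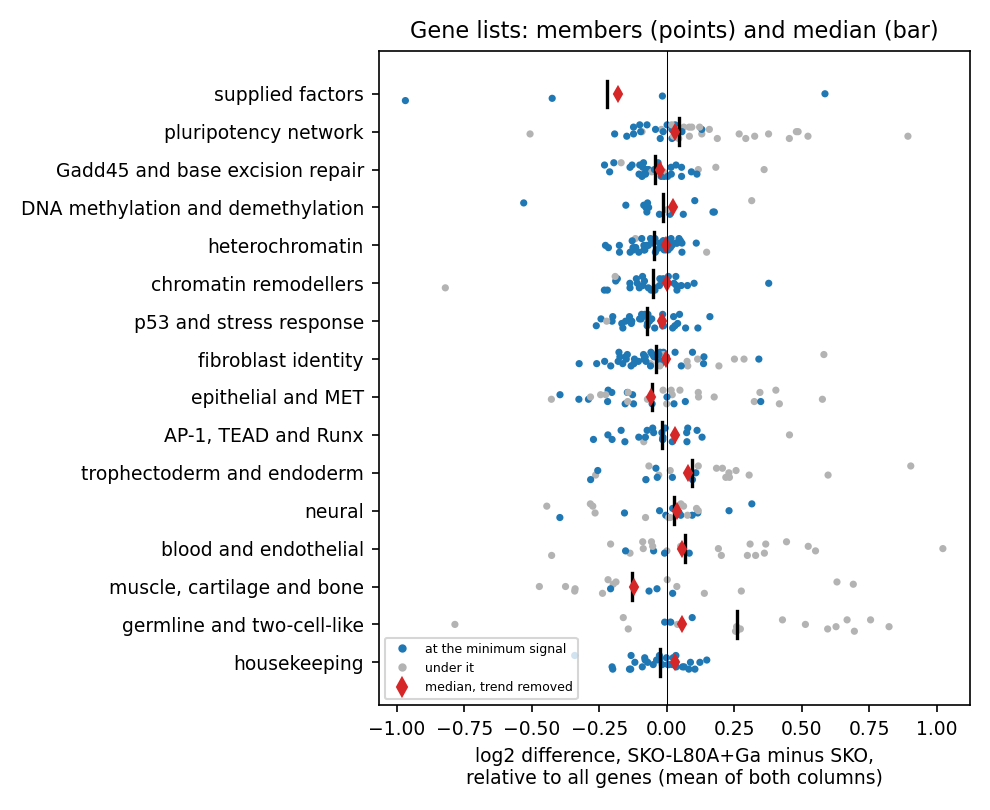
Mean log2 difference of SKO-L80A+Ga minus SKO relative to all genes (x axis) for the members of 16 gene lists (rows); blue points reached the minimum signal, grey points did not, black bars are list medians and red diamonds are medians with the trend on mean signal removed. List medians lie close to 0 apart from the supplied factors, the muscle list and, without the trend removed, the germline list.

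The distance of the other mixes from SKO was computed in the same way; these comparisons share SKO, so their values are given side by side. The median size of the log2 difference from SKO was 0.0822 for SKO-L80A+Ga, 0.0656 for SKO-L80A, 0.0682 for SKO+shBrg1 and 0.110 for SKO-L80A+Vc. The share of genes within 1.5-fold of SKO in both pairs was 99.1% for SKO-L80A+Ga, 99.6% for SKO-L80A, 99.7% for SKO+shBrg1 and 97.4% for SKO-L80A+Vc. SKO-L80A without Gadd45a had 2 genes higher than SKO by 1.5-fold in each pair (0.0158%) and 0 lower (0.0%). On these measures SKO-L80A+Ga was no closer to SKO than SKO-L80A was. The 4 medians are sizes of the mean of both column pairs, a measure unlike the distance between the columns of 1 library. In single column pairs, at genes at the minimum signal in SKO-L80A+Ga or SKO, the medians ran from 0.0847 for SKO+shBrg1 to 0.134 for SKO-L80A+Vc. Between the columns of 1 library they ran from 0.153 in SKO to 0.188 in SKO-L80A+Vc. The same 100 opened genes had a median of -0.14 in SKO-L80A+Ga minus SKO and of 0.02 in SKO-L80A minus SKO. Their median signal was 11.7 in SKO-L80A+Ga, 15.2 in SKO-L80A and 15.0 in SKO. Set directly against SKO-L80A, SKO-L80A+Ga had a median difference of all genes of -0.11 in column pair 1 and -0.40 in column pair 2 before centring.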

How the data were processed

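The authors deposited 1 table with an ATAC signal (density) for 21965 genes in 20 columns, 2 per condition, and each condition has 1 library. The window of each gene, the scaling between libraries and the read depth behind the signal are unknown from the sources used here, so no counting interval was computed. Per the submitters' processing notes the build was mm10, and Trimmomatic 0.35, Bowtie2 2.2.5, MACS2 2.1.0, bedtools 2.25.0, deepTools and DESeq2 1.22.2 were among the tools; the step each served is not known.

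Differences were taken between same-numbered columns as log2(signal + 0.138), where the pseudocount is percentile 10 of all values above 0, minus the median of all genes. A gene at the minimum signal has a mean of at least 6.92 in either condition. A gene was called when it passed 2-fold in each column pair, or 1.5-fold as a lower threshold. With 1 library per condition there is no test. Lowess used a fraction of 0.3 and 3 iterations (statsmodels 0.14.6). The rule for named genes takes the 12 genes per direction with the largest lesser difference. It adds a fixed group of factor and marker genes, leading genes of each gene group and members of the lists. Not all are printed. Tspan13, Il18, Nrarp, Pim2 and the other octamer genes named, Dcst2 and Cryab were picked with their values in view. The comparison, the lists and the rules were chosen with earlier results of these data known. The procedure was tested on simulated data. Of the symbols, 20788 matched RefSeq (GRCm38.p6), which gave coordinates and promoters; promoters on chromosome 18 were not used.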

Additional observations from a re-analysis of the deposited data

How the results depend on the processing

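No paired analysis was possible because each condition has 1 library. The 2-fold count of genes higher in SKO-L80A+Ga, 1 as reported, was 0 with a pseudocount 4 times larger, without centring, with quantile normalisation and with crossed column pairing, 7 with no minimum signal and 2 at 1.5-fold. The count of lower genes, 0 as reported, was 3 with no minimum signal, 1 without centring, 1 in column pair 1 alone, 3 in column pair 2 alone and 7 at 1.5-fold. The 7 genes lower by 1.5-fold were the same genes with either other pseudocount, quantile normalisation and lowess; without centring they were among 76 lower genes, and with crossed column pairing 3 of them remained; the cause was not tested. The median size of the difference from SKO, 0.082, was 0.090 and 0.079 with a larger and a smaller pseudocount, 0.126 with no minimum signal, 0.299 without centring, 0.073 with quantile normalisation, 0.072 with lowess, and 0.104 and 0.105 in column pairs 1 and 2 alone. The median of the 100 opened genes, -0.144, was -0.373 without centring, -0.092 with quantile normalisation, -0.096 with lowess and the genes chosen under it, and -0.097 in column pair 1 alone. It was below 0 under every alternative run. Without centring, 37 of 129 named genes and 4 of 16 list medians changed sign; lowess changed 3 and 4. Without replicate libraries, differences of this size cannot be told apart from variation between libraries, and the depth of the signal is unknown.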
